A study of Mus musculus with 72 samples.

Results

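The genes of prostaglandin E2 synthesis, signalling and breakdown were followed in mouse melanoma lines given gastrin-releasing peptide (GRP), the ligand of the receptor GRPR. The 10 genes are Pla2g4a, Ptgs1, Ptgs2, Ptges, Ptges2, Ptges3, Ptger1, Ptger2, Ptger4 and Hpgd, chosen by symbol for their place in the pathway, with earlier results of these data known, and all 10 were found among the 50600 genes of the count table. RNA-seq covered 72 libraries, 3 for each of 4 treatments in 6 lines. After 18 h of starvation in 0.5% serum, cells received for 4 h, in the same serum, 10 nM GRP, 1 µM of the GRPR antagonist RC-3095 (RC), both (GRP+RC), or 0.1% DMSO (mock). Whether the treated cells also received DMSO is not given in the sample labels.

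All 6 lines carry Tyr::NRASQ61K/°, an NRAS oncogene driven by the tyrosinase promoter. Lines 1057 and 1064 are female, labelled GRPR-positive, and add Cdkn2a-/-, Tyr::CreA/° and Cdh1dF/dF, so that Cre expressed from the tyrosinase promoter deletes the E-cadherin gene. The male line 1181 is also given as Cdkn2a-/- and Cdh1dF/dF but has no Cre transgene, and the female line 1014 is given with the NRAS transgene alone. Each exists in a version with CMV::Grpr/tGFP (1181-Grpr and 1014-Grpr) and a version with CMV::tGFP alone (1181-Ctrl and 1014-Ctrl), so that in the Grpr versions the receptor is expressed from a viral promoter. Each genotype is thus represented by 1 or 2 lines, and a difference between lines cannot be told apart from a difference between genotypes. The study's methods speak of biological replicates for its cell culture work in general, but the labels do not say that the 3 libraries of a group were separate cultures, so the p-values measure the spread between these libraries, which may be technical.

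Library totals ranged from 19512882 to 46862053 reads. Levels are given as raw counts or as CPM, read counts scaled to library size after TMM normalization, and the floor of detection was set at 3 reads. All 7 melanocyte genes checked, among them Tyr, Dct and Pmel, were above 1 CPM on average in every line, with a summed level between 5426 and 37584 CPM. The summed level of 5 leukocyte and macrophage genes lay between 1.3 and 33 CPM, and Cd68 was the only one of them above 1 CPM on average; it moved with GRP in some lines, as given with those results. The endothelial list summed to at most 9.25 CPM, the fibroblast list to at most 37.1 CPM and the keratinocyte list to at most 4.24 CPM.

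Grpr was measured at 187 to 275 CPM in 1057, 472 to 1284 CPM in 1064 and 107 to 620 CPM in 1014-Grpr, and at no more than 0.0915 CPM in 1181-Ctrl. It was lower with GRP than in mock in 1057 (197 to 210 against 273 to 275 CPM) and 1064 (472 to 519 against 786 to 1284 CPM). It was higher with GRP in 1014-Grpr (399 to 620 against 107 to 141 CPM) and 1181-Grpr (19.1 to 79.9 against 8.49 to 17.7 CPM). These changes are given as levels only. In 1181-Grpr 11 libraries held 8.49 to 79.9 CPM, but replicate 2 of GRP+RC held 0. In 1014-Ctrl 11 libraries held at most 0.0332 CPM, but replicate 2 of mock held 48.1 CPM. The Y-linked gene Ddx3y also went against the labels of these 2 libraries, at 0 CPM in the first, where the other 1181-Grpr libraries held 37.1 to 63.3 CPM, and at 64.2 CPM in the second, where the other 1014-Ctrl libraries held 0. They were kept under their labels. Comparisons of the 10 genes whose fit includes them are mostly given with and without them, and those of other pathway genes mostly with them only. Xist, the transcript of the inactive X chromosome, lay between 193 and 248 CPM in the other 11 libraries of 1181-Grpr and at no more than 0.641 CPM in 1181-Ctrl, although both are labelled male. Cdh1, which encodes E-cadherin, was at no more than 0.119 CPM in 1057 and 1064 and at 14.5 to 26.9 CPM in 1181-Ctrl, so the transcript was present in line 1181 although its label gives the same Cdh1dF/dF alleles.

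Prostaglandin synthesis starts when a phospholipase such as cytosolic phospholipase A2 (Pla2g4a) frees arachidonic acid from membrane lipids. A cyclooxygenase, either the largely constitutive Ptgs1 or the inducible Ptgs2, turns it into prostaglandin H2, from which the E synthases Ptges, Ptges2 and Ptges3 make prostaglandin E2. The product leaves the cell, acts on the G-protein-coupled receptors EP1 to EP4 (Ptger1 to Ptger4) and is inactivated by the dehydrogenase Hpgd. Ptger2 and Ptger4 raise cAMP, Ptger1 raises intracellular calcium and Ptger3 mainly lowers cAMP. In tumours the pathway is best known for cyclooxygenase induction by growth factors and for effects of prostaglandin E2 on tumour and immune cells.

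The sequences around the Ptgs2 and Ptger4 starts are shown because these genes rose with GRP in both lines that had a response among the 10. They come from RefSeq on GRCm38.p6, in which 9 of the 10 genes had a promoter entry, and run 5′ to 3′ on the strand of the gene. The first is the 100 bases before the Ptgs2 start at chr1:150099931-150100030 (+), the second its first 30 transcribed bases at chr1:150100031-150100060 (+), and the third the 100 bases before the Ptger4 start at chr15:5244188-5244287 (-).
Ptgs2 upstream: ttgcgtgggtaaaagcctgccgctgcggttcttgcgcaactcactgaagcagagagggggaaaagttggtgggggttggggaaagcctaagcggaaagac
Ptgs2 start: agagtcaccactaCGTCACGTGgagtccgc
Ptger4 upstream: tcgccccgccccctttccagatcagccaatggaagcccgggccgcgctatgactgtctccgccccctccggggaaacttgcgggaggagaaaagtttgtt
Capitals mark 2 overlapping motif matches, TGACG (the core of a cAMP response element) read on the opposite strand from base 14 to base 18 after the start, and the E-box CACGTG from base 17 to base 22. TATAAA (the TATA box), TGACG, the AP-1 motif TGANTCA, the E-box CACGTG, the NF-kappaB motifs GGGANTTCC and also GGGANTTTC, the TEAD motif GGAATG and the EGR motif GCGTGGGCG were searched on both strands in windows from 250 bases before to 50 after each start. Of 32851 mouse promoters 20.8% held TGACG and 7.15% held CACGTG, while 13.6% held the TATA box, 14.7% the TEAD motif, 7.81% the AP-1 motif, 1.68% the first and 1.11% the second of the NF-kappaB motifs and 0.612% the EGR motif. Ptges3 was the other gene of the 10 with TGACG and Ptges2 the other with CACGTG. The TEAD motif was found for Ptges and Ptges2 and the TATA box letters for Hpgd and Pla2g4a, and none of the motifs was found in the window of Ptger4. A match describes letters in the sequence and is not a measured binding site.

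At rest, that is in mock libraries, the pathway was expressed very unequally. Levels of different genes are compared on the authors' TPM, which accounts for gene length. Ptges3, also known as the co-chaperone p23, was the most abundant in every line, with line averages between 193 and 230 TPM, followed by Ptges2 at 11.7 to 25.6 TPM. Pla2g4a averaged up to 5.91 TPM and Ptgs1 up to 4.24 TPM, Ptger1 between 0.19 and 1.64 TPM, and Ptger4 no more than 0.153 TPM. Ptgs2 averaged at most 0.0533 TPM in mock libraries of any line. Ptges, Ptger2 and Hpgd were at the limit of detection in all 72 libraries: Ptges held at most 6 reads and was at 0 in 47 libraries, Ptger2 held at most 5 and was at 0 in 67, and Hpgd held at most 1 and was also at 0 in 67. Among 53 further genes of the pathway the highest resting levels were those of the prostaglandin D synthase Ptgds with a mean of 2575 TPM over the 6 lines, the phospholipase inhibitor Anxa1 with 1179 TPM and the monoacylglycerol lipase Mgll with 416 TPM.

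**Figure D1:**
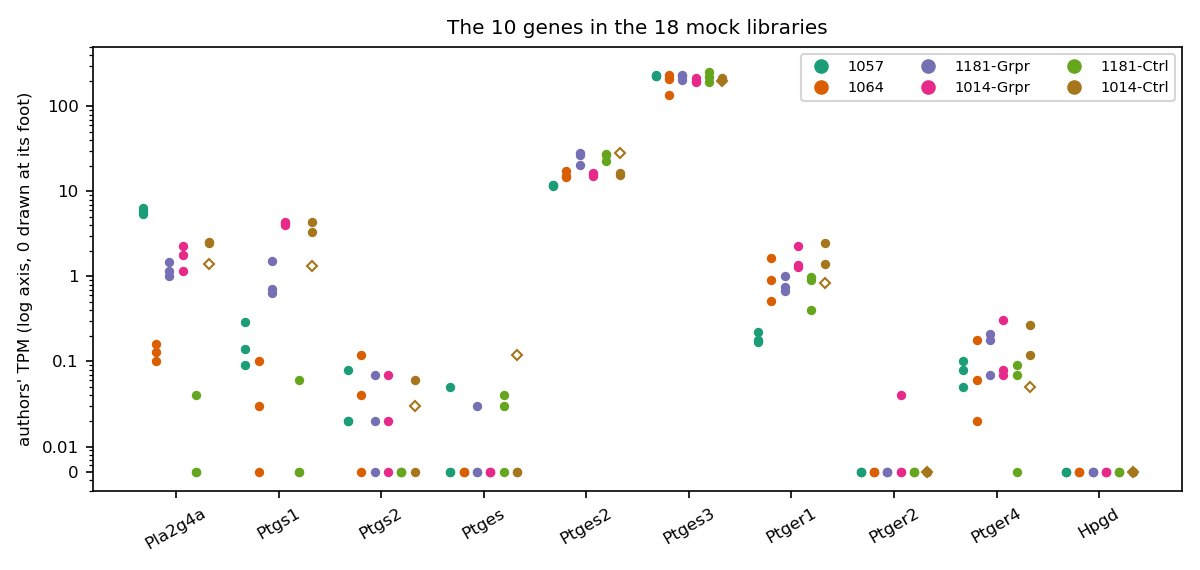
Level of each of the 10 genes in the 18 mock libraries in the authors' TPM on a log axis, with libraries at 0 drawn at its foot, coloured by line; the open diamond is mock replicate 2 of 1014-Ctrl, which goes against its label. Ptges3 and Ptges2 sat above 10 TPM in every library, Pla2g4a and Ptgs1 spread widely between lines, and Ptges, Ptger2 and Hpgd were at or near 0.

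Pla2g4a (chromosome 1, 149829618 to 149961290 of GRCm38, reverse strand) differed most between lines. The 3 mock libraries of 1057 held 421, 373 and 432 reads (12.6 ± 0.902 CPM, SD, n = 3), those of 1014-Ctrl 116, 59 and 119 (3.75 ± 1.14 CPM), those of 1014-Grpr 95, 133 and 45 (3.07 ± 1.02 CPM), those of 1181-Grpr 88, 42 and 57 (2.08 ± 0.371 CPM), those of 1064 6, 4 and 10 (0.269 ± 0.0693 CPM) and those of 1181-Ctrl 0, 2 and 0. Every library of 1057 was above every library of the other lines. In edgeR's quasi-likelihood test over the 18 mock libraries, calls needed both an adjusted p (Benjamini-Hochberg, over all genes) below 0.05 and a log2 fold change beyond 1 in either direction. In the order of levels 1057 was above 1014-Ctrl (log2 difference 1.73 ± 0.34 SE, edgeR adjusted p = 0.000543), 1181-Grpr above 1064 (adjusted p = 3.69e-05 by edgeR) and 1064 above 1181-Ctrl, whose 2 reads are under the floor (adjusted p = 0.000903 by edgeR). The neighbours 1014-Ctrl, 1014-Grpr and 1181-Grpr did not pass the test against each other in that order. Of the 15 pairs of lines, 12 were called, or 13 without mock replicate 2 of 1014-Ctrl. These lines differed widely in general. Of all genes tested, 31.8%, 34.3%, 35.6% and 32.1% were called between 1057 and 1181-Grpr, 1014-Grpr, 1181-Ctrl and 1014-Ctrl (33.5%, 35.9%, 37.3% and 34% without that library), and 28.5%, 28.9%, 32.5% and 26.6% between 1064 and the same 4 lines (30.1%, 30.2%, 33.9% and 28.3% without it). Between 1181-Grpr and 1014-Grpr 14.2% were called, between 1014-Grpr and 1181-Ctrl 26.1%, between 1181-Ctrl and 1014-Ctrl 16.4%, and between 1181-Grpr and 1014-Ctrl 0%; the last became 14.7% without the library and the first 3 became 16%, 27% and 26.1%. The remaining 3 pairs are given with their genes below.

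Ptgs1 (chromosome 2, 36230426 to 36252272, forward strand) followed another order. Its mock libraries held 128, 156 and 101 reads in 1014-Grpr (4.49 ± 0.186 CPM), 93, 34 and 123 in 1014-Ctrl (3.17 ± 1.61 CPM, or 4.05 CPM without replicate 2), 23, 18 and 46 in 1181-Grpr (1.00 ± 0.529 CPM), 4, 12 and 6 in 1057 (0.226 ± 0.129 CPM), 3, 0 and 1 in 1064 and 0, 2 and 0 in 1181-Ctrl. The cyclooxygenase was thus highest in the 1014 lines, while the phospholipase was highest in 1057. Between neighbours in this order only 1181-Grpr and 1057 differed by the test (log2 difference 2.14, edgeR adjusted p = 0.00723), and 1014-Ctrl against 1181-Grpr was called as well once replicate 2 was left out (2.02, edgeR adjusted p = 0.00259). Of the 15 pairs 11 were called, or 12 without that library.

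Both genes moved with the libraries that went against their labels. Replicate 2 of mock 1014-Ctrl held 1.40 CPM of Ptgs1 where the other 11 libraries of that line held 2.95 to 5.41, and replicate 2 of GRP+RC in 1181-Grpr held 3.88 CPM where the other 11 held 0.649 to 1.64. For Pla2g4a the same 2 libraries held 2.43 and 5.21 CPM. The plot of both genes over all libraries shows them outside the range of their own lines.

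**Figure D2:**
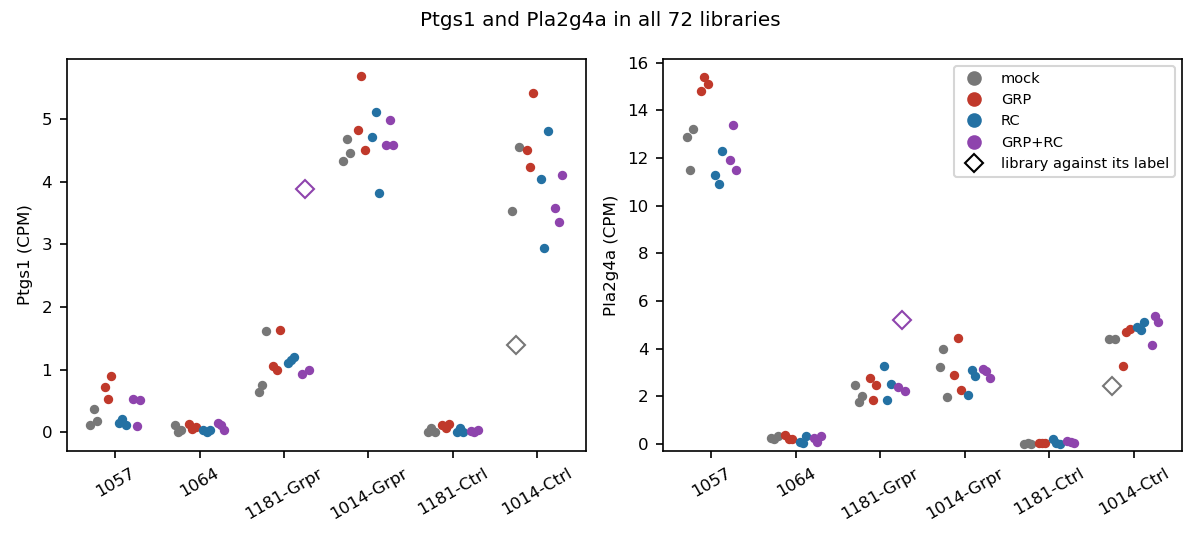
CPM of Ptgs1 (left) and Pla2g4a (right) in all 72 libraries by line, coloured by treatment; open diamonds are the 2 libraries that go against their labels. Pla2g4a in 1057 lay above 10 CPM in every library, Ptgs1 was highest in the 1014 lines, and the open diamonds sat apart from the other libraries of their line.

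The design compares resting lines in 4 ways that bear on the receptor and on E-cadherin. Between 1057 and 1064, which share their genotype, 2 of the 6 tested genes were called, where 25% of all 15358 genes tested were (27% without mock replicate 2 of 1014-Ctrl). Pla2g4a was 45.2-fold higher in 1057 (log2 difference 5.50 ± 0.43 SE, edgeR adjusted p = 1.42e-07) and Ptger1 was lower there (-2.35 ± 0.50, edgeR adjusted p = 0.00114). Between 1181-Grpr and 1181-Ctrl Pla2g4a and Ptgs1 were called, both higher with the receptor (6.18 ± 0.57 and 5.13 ± 0.86, edgeR adjusted p = 3.62e-06 and 0.000942), where 6.32% of all genes were called (8.23% without the library). Both were at 2 reads over the 3 control libraries, under the floor, so these fitted values depend on the prior count, and the call of Ptgs1 was lost without replicate 3. Xist separated the same libraries, at 193 CPM or more in 1181-Grpr and at most 0.641 CPM in 1181-Ctrl, and its part in the difference was not tested. Between 1014-Grpr and 1014-Ctrl, the other receptor and vector pair, none of the 6 tested genes was called by edgeR, none was under an unadjusted p of 0.05 and none was called by DESeq2, where 0.0846% of all genes were called (0.228% without the library).

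Lines 1057 and 1064 together, with at most 0.119 CPM of Cdh1 (E-cadherin) in any library, were above the vector lines for Pla2g4a (log2 difference 2.50 ± 0.38, edgeR adjusted p = 4.07e-05). This was 1 call among the 6 tested genes, where 29.2% of all genes were called. That value joins unlike lines, since 1057 and 1064 lay on either side of 1014-Ctrl, and 1181-Ctrl held 2 reads of Pla2g4a, under the floor. The vector lines were unlike in Cdh1 as well. It was at 14.5 to 26.9 CPM in 1181-Ctrl and at 1.87 to 5.13 CPM in 1014-Ctrl, apart from 22.7 CPM in the library against its label. Ptger1 was lower in 1057 and 1064, at -0.99 ± 0.33 and an edgeR adjusted p of 0.0171, just short of the fold threshold, and was called at -1.14 without mock replicate 2 of 1014-Ctrl, when 28.4% of all genes were called.

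Ptges2 (chromosome 2, 32395896 to 32405772) and Ptges3 (chromosome 10, 128058954 to 128077272) varied less between lines. Line averages in mock libraries ran from 19.8 to 34.1 CPM for Ptges2 and from 123 to 170 CPM for Ptges3, and none of the 15 pairs of lines was called for either, nor for Ptger4. Some differences passed the adjusted p and not the fold threshold. Ptges2 was higher in 1181-Ctrl than in 1014-Ctrl by 0.56 (log2, edgeR adjusted p = 0.00356) without mock replicate 2 of 1014-Ctrl. The annotation holds a processed pseudogene, Ptges3-ps, and a paralog, Ptges3l, that can share reads with Ptges3, so its counts are uncertain to that degree. Ptger1 (chromosome 8, 83666678 to 83672753) ranged from 0.349 ± 0.0489 CPM in 1057 to 2.45 ± 0.862 CPM in 1014-Grpr, with 6 of 15 pairs called, or 8 without the library. The libraries are strand-specific, but whether counting used the strand is not given in the sources used here, so for any of the 10 genes the counts may include reads from the opposite strand.

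Whether GRP acts on the pathway was asked by comparing GRP with mock in each line. In 1057, Ptgs2, Ptgs1 and Ptger4 rose, and in 1014-Grpr Ptgs2 and Ptger4 rose. Ptgs2 went up 11.6-fold in 1057 and 31.7-fold in 1014-Grpr, from at most 4 reads to at least 16 reads per library, so that it remained a rare transcript, at 0.470 TPM and 0.927 TPM with GRP. None of the 10 genes was called in 1064, in 1181-Grpr or in either vector line, where only 3 to 6 of them could be tested. The leukocyte and macrophage list moved with GRP in the same 2 lines. Its summed level went from 1.3 to 1.84 CPM in mock to 5.78 to 6.53 CPM with GRP in 1057 (2.91 to 3.56 CPM with GRP+RC), and from 2.07 to 3.28 CPM to 4.51 to 8.57 CPM in 1014-Grpr (2.58 to 4.45 CPM with GRP+RC). Cd68, which encodes a lysosomal protein, carried this, with 1.54 and 6.02 CPM on average in mock and GRP of 1057 and 2.39 and 5.97 CPM in 1014-Grpr, while Ptprc, Csf1r, Adgre1 and Itgam each averaged at most 0.117 CPM and Adgre1 was at 0 in both groups of 1057. The fibroblast list went from 3.89 to 4.73 CPM in mock to 5.66 to 6.44 CPM with GRP in 1057. The part of either list in the results was not tested. In bulk RNA a change in the number of cells that express a gene and a change in RNA per cell cannot be told apart.

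Ptgs2 (chromosome 1, 150100031 to 150108227, forward strand) was counted 1, 1 and 4 times in the mock libraries of 1057 and 20, 28 and 22 times with GRP (0.0614 ± 0.0529 and 0.740 ± 0.0764 CPM). In 1014-Grpr it was counted 0, 1 and 2 times in mock and 16, 62 and 47 times with GRP (0.0394 ± 0.0449 and 1.24 ± 0.719 CPM). In both lines every GRP library was far above every mock library, and in 1014-Grpr the GRP libraries differed among themselves by more than in 1057. The change was 3.53 ± 0.50 (log2, SE) in 1057 with an edgeR adjusted p of 9.17e-06, and 4.98 ± 0.82 in 1014-Grpr with an edgeR adjusted p of 0.00081. The ratio of summed reads was 12.1 in 1057 with a 95% counting interval of 5.28 to 34, and 35.4 in 1014-Grpr with an interval of 11.8 to 174; these intervals cover counting error only. Ptgs2 passed the filter on low counts in these lines through its GRP libraries, so that it had to be higher there to be tested at all.

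In the other lines Ptgs2 was not tested, as too few reads were counted. In 1064 it held 4, 0 and 2 reads in mock and 3, 4 and 1 with GRP, a ratio of 1.41 with an interval of 0.43 to 4.95. In 1181-Grpr it held 1, 2 and 0 reads in mock and 1, 1 and 0 with GRP, and in 1014-Ctrl 2, 1 and 0 and then 1, 1 and 0. In 1181-Ctrl a single read was counted in 12 libraries. At these counts no response was detectable in these 4 lines. The antisense transcript Ptgs2os held at most 2 reads in any library and Ptgs2os2 held 0 in all 72.

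Ptger4 (chromosome 15, 5206661 to 5244187, reverse strand), the receptor that raises cAMP, had 4, 6 and 7 reads in mock 1057 and 18, 18 and 17 with GRP (0.174 ± 0.0468 and 0.565 ± 0.0454 CPM). In 1014-Grpr it had 17, 5 and 3 reads in mock and 36, 30 and 66 with GRP (0.286 ± 0.25 and 1.29 ± 0.269 CPM). The GRP libraries were above the mock libraries without overlap in both lines, although replicate 1 of mock 1014-Grpr was well above the other mock libraries. The change was 1.69 ± 0.32 in 1057 (edgeR adjusted p = 0.000225) and 2.15 ± 0.46 in 1014-Grpr (edgeR adjusted p = 0.00405), the latter at an adjusted p of 0.0506 without replicate 2. In 1057 Ptger4 passed the filter on low counts only through libraries with GRP, RC or both, so that it had to exceed mock there to be tested. In 1014-Grpr some libraries of each of the 4 treatments reached the filter, among them all with GRP. Ptger4 was not tested in 1064, 1181-Grpr or 1181-Ctrl. Its summed reads in mock and GRP were 14 and 19 in 1064, 25 and 26 in 1181-Grpr and 8 and 21 in 1181-Ctrl. The ratios were 1.44 (counting interval 0.685 to 3.1), 0.955 (0.53 to 1.72) and 2.21 (0.941 to 5.77). Of its exon bases 16.5% overlap other genes on the opposite strand. The other receptor of the cAMP-raising kind, Ptger2, had at most 5 reads in any library, that one in 1014-Grpr with GRP, and was not tested.

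**Figure D3:**
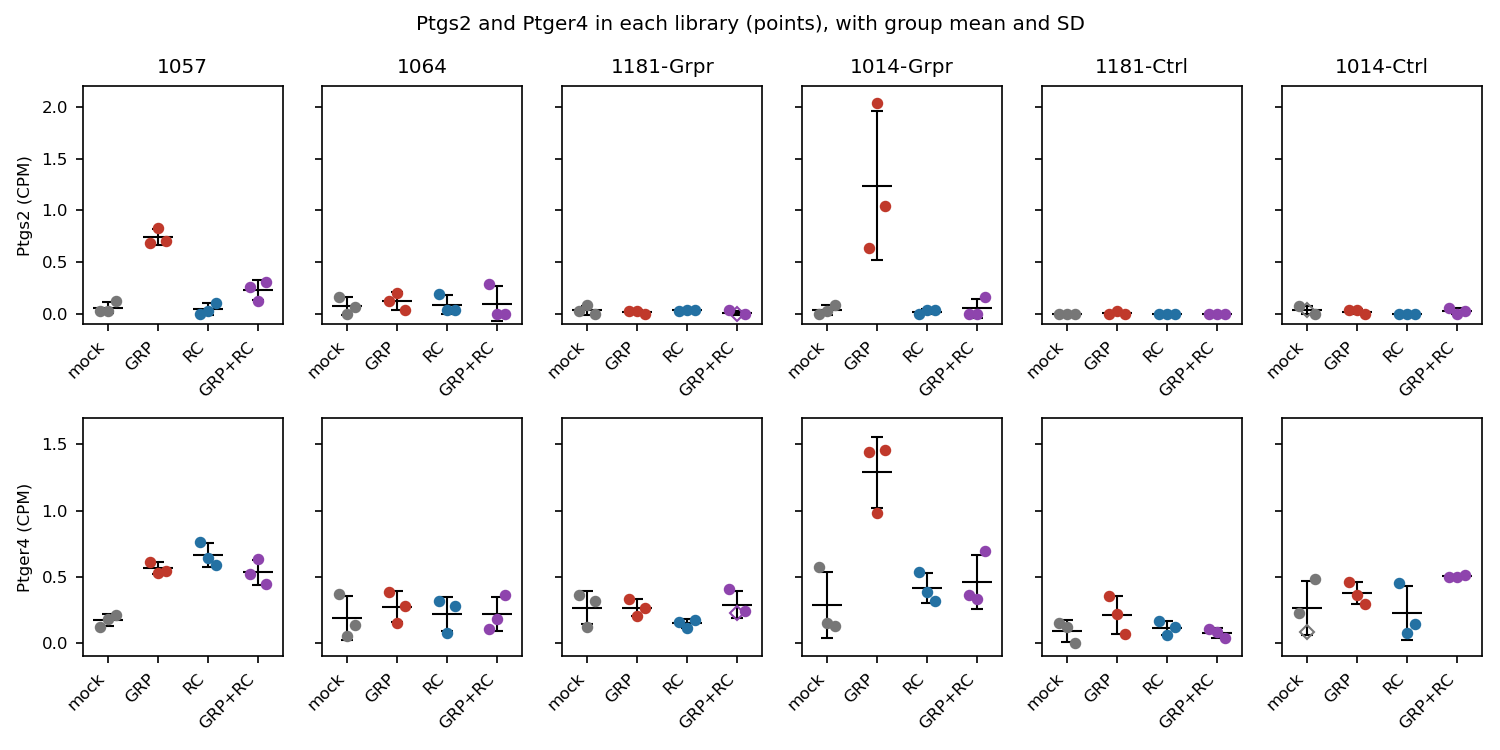
CPM of Ptgs2 (top) and Ptger4 (bottom) in each library by treatment and line, with group mean and SD over 3 replicates; open diamonds are the 2 libraries that go against their labels. Ptgs2 rose with GRP in 1057 and 1014-Grpr and was near 0 in the remaining lines, and Ptger4 in 1057 was raised in all 3 treatments.

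Ptgs1 had 4, 12 and 6 reads in mock 1057 and 21, 18 and 28 with GRP (0.717 ± 0.184 CPM), a change of 1.67 ± 0.46 with an edgeR adjusted p of 0.00489, which was lost without replicate 3 (1.35, adjusted p = 0.0868 by edgeR). In 1014-Grpr, where Ptgs1 started higher, it stood at 4.49 CPM in mock and 5 CPM with GRP (0.17 ± 0.14, edgeR adjusted p = 0.403). In all, 3 of the 10 genes were called in 1057, where 6.46% of 14195 tested genes were, and 2 of the 10 in 1014-Grpr, where 4.01% of 13730 were. Nothing is read from these shares, since Ptgs2 in both lines was tested because of its GRP libraries and Ptger4 in 1057 because of its treated libraries. Small changes passed the adjusted p and not the fold threshold: Pla2g4a was higher with GRP by 0.29 ± 0.07 (log2) in 1057 (edgeR adjusted p = 0.00198), from 12.6 to 15.1 CPM with no overlap of libraries, and Ptges3 by 0.13 ± 0.03 in 1057 and 0.33 ± 0.06 in 1014-Grpr (edgeR adjusted p = 0.00146 and 0.0024). Ptges2 stayed at 22 CPM in 1014-Grpr with and without GRP and at 19.8 and 19.5 CPM in 1057.

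In 1064 3 of the 10 genes could be tested against mock, in 1181-Grpr 5, in 1181-Ctrl 3 and in 1014-Ctrl 6. None was called by edgeR or DESeq2 and none had an unadjusted edgeR p under 0.05, where 2.32% of all genes tested were called in 1064 and 0% in each of the other 3 lines. Without the library against its label, none of the 10 was called in 1181-Grpr or 1014-Ctrl either, and the share of all genes was again 0% in both. With the replicate number as a block, which same-numbered libraries of 1064 bear out, 6.52% of all genes were called in 1064 and again none of the 10. Ptges3 in 1064 kept its change of 0.27 and its edgeR adjusted p went from 0.635 to 0.00484. Its libraries of the same number held 144 and 192, 98.1 and 119, and 180 and 197 CPM in mock and GRP, higher with GRP in each pair.

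**Figure D4:**
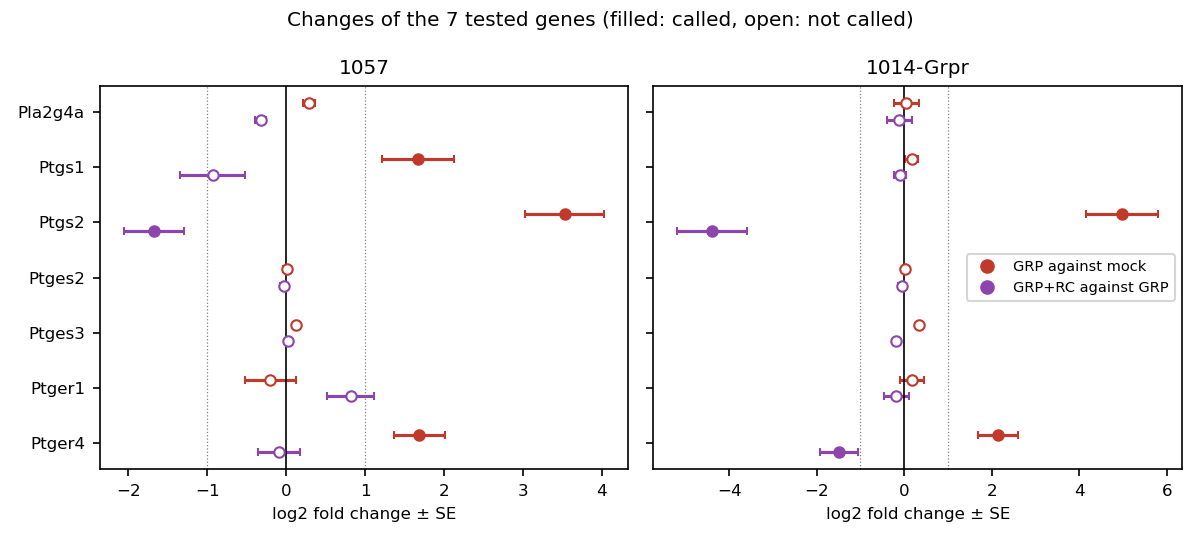
Log2 fold change with SE of the 7 tested genes for GRP against mock and for GRP+RC against GRP in 1057 (left) and 1014-Grpr (right); filled points are called and dotted lines mark the fold threshold. Ptgs2 moved furthest in both lines in both comparisons, and for GRP+RC against GRP Ptger4 was called in 1014-Grpr at -1.49 and stood at -0.09 in 1057.

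Averaged over the 4 GRPR-expressing lines in 1 fit of all 72 libraries, Ptgs2 (2.09 ± 0.67, edgeR adjusted p = 0.0168) and Ptger4 (1.07 ± 0.28, edgeR adjusted p = 0.0025) were called, where 2.28% of 16596 genes were (2.5% without the 2 libraries, with both genes still called). Without replicate 2 neither was called, without replicate 1 Ptger4 alone and without replicate 3 Ptgs2 alone. The average joins lines with and without a response. Ptgs2 passed the filter on low counts in this fit only through the GRP libraries of 1057 and 1014-Grpr. A positive mean GRP effect of Ptgs2 was thus favoured before the test. Against the average of the 2 vector lines no gene of the 10 differed (none at an unadjusted p under 0.05 by edgeR, none called by DESeq2), where 1.83% of all genes were called, and none was called without the 2 libraries, where 1.04% of all genes were. The closest comparison of receptor with vector is that of 1014-Grpr with 1014-Ctrl. Its difference of GRP effects was 5.60 ± 1.97 for Ptgs2 with an edgeR adjusted p of 0.0676, and 1.67 ± 0.80 for Ptger4 with 0.177, so that neither was called, where 3.89% of all genes were. With the replicate block, which same-numbered libraries bear out in 1014-Grpr and less clearly in 1014-Ctrl, the edgeR adjusted p of Ptgs2 was 0.0377, and 5.03% of all genes were called. Without mock replicate 2 of 1014-Ctrl it was 0.13, when 2.99% of all genes were called. Without that library and with the block Ptgs2 and Ptger4 were both called, at an edgeR adjusted p of 0.0482 and 0.0265. Ptgs2 passed the filter in the fits of this pair only through GRP libraries of 1014-Grpr, which favoured a positive difference. In the pair of 1181 lines no gene of the 10 was called, nor was any other gene (0%, and 0% without the library against its label), and none of the 10 was under an unadjusted edgeR p of 0.05 or called by DESeq2.

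The GRP effect was also compared between the 4 GRPR-expressing lines, in 6 pairs added after the data had been seen. Ptger4 responded more in 1057 than in 1181-Grpr (difference 1.72 ± 0.48, edgeR adjusted p = 0.0286, where 2.41% of all genes were called, or 3.25% without the 1181-Grpr library against its label, when Ptger4 was still called), and Ptgs1 more in 1057 than in 1014-Grpr (1.49 ± 0.45, edgeR adjusted p = 0.0266, where 2.83% were). Both were lost without replicate 1 and without replicate 3. Ptgs2 did not pass in any pair: its GRP effect in 1057 differed from that in 1014-Grpr by -1.48 ± 1.33 (edgeR adjusted p = 0.553) and from that in 1064 by 3.01 ± 1.5 (edgeR adjusted p = 0.474). In the pairs of 1057 with 1064, 1064 with 1181-Grpr, 1064 with 1014-Grpr and 1181-Grpr with 1014-Grpr no gene of the 10 was called, where 0.451%, 0.261%, 0.154% and 1.24% of all genes were. Without the 1181-Grpr library the second and the last of these shares were 0.614% and 1.84%, and again no gene of the 10 was called. In the last of these pairs Ptgs2 and Ptger4 were called with the replicate block. There too Ptgs2 passed the filter on low counts only through GRP libraries of 1014-Grpr.

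The antagonist RC-3095 was added to ask which part of the response passes through the receptor. Ptgs2 with GRP+RC was counted 9, 4 and 9 times in 1057 (0.232 ± 0.0943 CPM) and 0, 0 and 4 times in 1014-Grpr (0.0545 ± 0.0944 CPM). In 1057 these libraries lay between mock and GRP, and in 1014-Grpr 2 of the 3 were at 0. Against GRP alone Ptgs2 fell, with log2 changes of -1.68 ± 0.38 in 1057 (edgeR adjusted p = 0.00291) and -4.38 ± 0.80 in 1014-Grpr (edgeR adjusted p = 0.00379). Without replicate 2 the call was lost in both lines, at -1.30 and -3.27 with edgeR adjusted p-values of 0.0845 and 0.104, and DESeq2 gave no adjusted p for it in either. In 1 fit of all 72 libraries the edgeR adjusted p in 1057 was 0.694. In both lines Ptgs2 passed the filter on low counts only through its GRP libraries. A fall from GRP to GRP+RC was thus favoured before the test.

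Ptger4 was called with GRP+RC against GRP in 1014-Grpr and not in 1057, and the difference between the lines was not tested. In 1014-Grpr it had 8, 8 and 17 reads with GRP+RC, lower than with GRP (-1.49 ± 0.44, edgeR adjusted p = 0.0472, lost without any 1 of the 3 replicates). In 1057 it had 18, 20 and 13 reads with GRP+RC, against 18, 18 and 17 with GRP (-0.09 ± 0.26, edgeR adjusted p = 0.866). With RC alone Ptger4 in 1057 had 25, 21 and 16 reads against 4, 6 and 7 in mock, a rise of 1.91 ± 0.31 (edgeR adjusted p = 0.000194) with no overlap. It was the only one of the 10 genes called with RC alone in 1057, where 0.888% of all genes were called. DESeq2 gave no adjusted p for this change, and 1 fit of all 72 libraries gave 0.185. The 3 treatments of 1057 share the same mock libraries, so that their increases in Ptger4 are not independent. No mock library of 1057 reached the filter on low counts for Ptger4, so that an increase in some treatment was needed for it to be tested.

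For GRP+RC against GRP, 1.02% of all genes were called in 1057, 1.73% in 1014-Grpr, 0.0145% in 1064 and 0% in each of the other 3 lines, also in 1181-Grpr and 1014-Ctrl without the library against its label. With the replicate block 1.93% were called in 1064. In 1064, 1181-Grpr and the vector lines none of the tested genes of the 10 was called or was under an unadjusted edgeR p of 0.05, and DESeq2 called none. In 1181-Grpr Ptgs1 averaged 1.93 ± 1.69 CPM with GRP+RC because of replicate 2, whose 102 reads compare with 25 and 29 in replicates 1 and 3. In 1057 Pla2g4a stood at 15.1 CPM with GRP and 12.3 CPM with GRP+RC, a change of -0.32 ± 0.07 that passed the adjusted p and not the fold threshold (edgeR adjusted p = 0.00252).

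GRP+RC was also compared with mock. In 1057 Ptgs2 (1.85 ± 0.64, edgeR adjusted p = 0.0265) and Ptger4 (1.60 ± 0.33, edgeR adjusted p = 0.000554) were called, where 3.47% of all genes were. For Ptger4 this was no more than the 1.91 seen with RC alone, so that a response to GRP cannot be told apart from one to RC. Both genes passed the filter on low counts in 1057 only through treated libraries. The call of Ptgs2 was lost without replicate 1 and without replicate 2 (edgeR adjusted p = 0.165 and 0.0736), and 1 fit of all 72 libraries lost both calls (0.29 and 0.0736). Without replicate 2 Ptgs1 was called as well. In 1014-Grpr none of the 7 tested genes was called by edgeR or DESeq2, 1 had an unadjusted edgeR p under 0.05 (Ptges3, 0.15 ± 0.06) and 0.189% of all genes were called.

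The rest of the pathway was read from 5 lists with 55 genes, of which 53 were found: arachidonate release, other prostanoid synthases, other prostanoid receptors, transport and breakdown, and the lipoxygenase branch. With GRP 2 of 34 tested genes rose in 1057, 1 of 26 in 1064, 1 of 30 in 1014-Grpr and none of 30 in 1181-Grpr, 1181-Ctrl or 1014-Ctrl, and none fell in any line. Of all genes 6.46%, 2.32%, 4.01%, 0%, 0% and 0% were called in the same comparisons, so the list counts were near the background. The median change over the tested list genes was -0.04 in 1057 and -0.17 in 1014-Grpr, against -0.01 and -0.02 over all genes. The genes that rose in 1057 were both prostanoid receptors, and with GRP they stood at 8.09 TPM (Ptger3) and 2.92 TPM (Ptgfr), where Ptger1 stood at 0.157 TPM.

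Ptger3, the receptor that mainly lowers cAMP (chromosome 3, 157566892 to 157645888, forward strand), was counted 105, 89 and 100 times in mock 1057, 477, 546 and 466 times with GRP, 164, 197 and 155 times with RC and 305, 280 and 286 times with both. All 4 groups were separate, from 3.01 ± 0.24 CPM in mock to 15.8 ± 0.734 CPM with GRP. It rose 5.33-fold with GRP (2.41 ± 0.09, edgeR adjusted p = 1.65e-13), and with GRP+RC stayed above mock (1.61 ± 0.10, edgeR adjusted p = 2.68e-10). With RC alone it was 0.88 ± 0.11 above mock, which passed the adjusted p and not the fold threshold (edgeR adjusted p = 7.47e-06). Ptger3 was at 0 in all 12 libraries of 1064 and held at most 4 reads in any library of the other 4 lines.

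Ptgfr, the receptor of prostaglandin F2α, was counted 17, 5 and 3 times in mock 1057, 214, 224 and 201 times with GRP, 50, 50 and 41 times with RC and 134, 152 and 152 times with both. It rose 26.6-fold with GRP (4.73 ± 0.25, edgeR adjusted p = 1.85e-11), 5.85-fold with RC alone (edgeR adjusted p = 2.23e-05) and 17.8-fold with both (edgeR adjusted p = 6.36e-10), against the same mock libraries. In 1064 it rose from 3, 3 and 5 reads to 31, 46 and 47 (3.56 ± 0.51, edgeR adjusted p = 0.00563). Summed over replicates, it held 11 reads there in mock, 59 with RC alone and 57 with both. Neither of the latter was called against mock in the fit without the replicate block (2.24 and 2.19). Their ratios of summed reads to mock were 4.94 (counting interval 2.57 to 10.4) and 4.7 (2.44 to 9.94), intervals that cover counting error only. In 1014-Grpr it had 0, 1 and 0 reads in mock and 6, 10 and 6 with GRP and was not tested there. In 1181-Grpr it had 1, 2 and 4 reads in mock and 7, 5 and 4 with GRP, and in the vector lines it held at most 4 reads. Ptgfr passed the filter on low counts in 1064 only through treated libraries, and in 1057 through these and the mock library with 17 reads. A rise over mock was thus favoured before the tests in both lines.

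**Figure D5:**
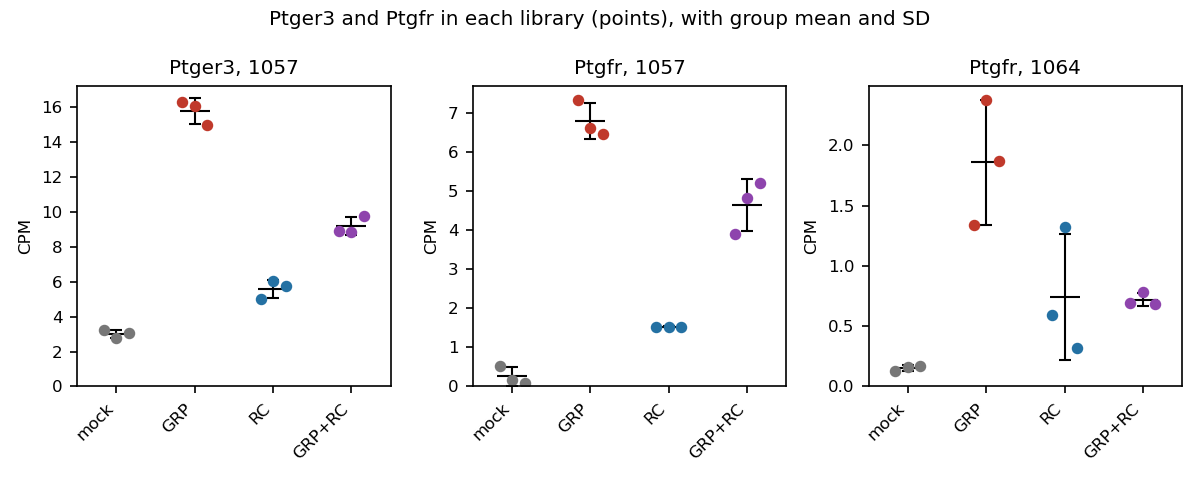
CPM of Ptger3 in 1057 and of Ptgfr in 1057 and 1064 in each library by treatment, with group mean and SD over 3 replicates; each panel has its own axis, which starts at 0. In 1057 both receptors were highest with GRP, lower with GRP+RC and lowest in mock, with RC alone in between.

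In 1014-Grpr the one list gene called was Anxa1, which encodes annexin A1, an inhibitor of phospholipase A2. It rose from 128 to 610 CPM with GRP (2.27 ± 0.17, edgeR adjusted p = 2.27e-06) and was at 199 CPM with GRP+RC (-1.64 ± 0.16 against GRP, edgeR adjusted p = 7.94e-05). Its GRP effect exceeded that in 1014-Ctrl by 2.51 ± 0.20 (edgeR adjusted p = 8.72e-08). In 1057 Anxa1 went from 2748 to 4229 CPM, a change of 0.65 ± 0.03, under the fold threshold. Over the 4 GRPR-expressing lines 2 of 37 list genes were called, where 2.28% of all genes were, Ptgfr (3.28 ± 0.40, edgeR adjusted p = 7.04e-09) and the secreted phospholipase Pla2g5 (1.86 ± 0.56, edgeR adjusted p = 0.00948), the latter called in 7 of 11 alternatives. Pla2g5 rested on 1 read in mock 1057 and 27 with GRP, while in 1014-Grpr it had 169 and 150 reads. Apart from 1 mock library of 1057, Ptgfr reached the filter on low counts in this fit only in treated libraries, which favoured a positive mean.

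At rest more list genes were called between lines than with treatment, as was so for all genes. Of 36 tested list genes 9 were higher and 8 lower in 1057 than in 1064, where 25% of all genes were called, 3 were higher in 1181-Grpr than in 1181-Ctrl, where 6.32% were called, and none was called between 1014-Grpr and 1014-Ctrl, where 0.0846% were. In 1057 and 1064 against the vector lines 6 were higher and 15 lower, where 29.2% of all genes were called, with a median of -0.60 against -0.06 over all genes. The fit behind these resting counts includes the mock library of 1014-Ctrl that goes against its label. The 5 genes whose pattern was most like that of Ptgs2 over the 24 groups of line and treatment, by Pearson's r of mean log2(CPM + 1) after setting each line to its mock mean, were Mmp13 (0.966), Inhba (0.951), Il11 (0.940), Blzf1 (0.938) and Tcf12 (0.937), out of 16596. These groups share lines and libraries, so r is given as a description. With GRP, Mmp13 was scarcer than Ptgs2, at 0.419 CPM in 1057 and 0.406 CPM in 1014-Grpr. Inhba, a subunit of activin, stood at 0.052 CPM in mock and 13.3 CPM with GRP in 1014-Grpr and at 0 and 1.62 CPM in 1057.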

How the data were processed

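PolyA RNA of 6 mouse melanoma lines was sequenced from strand-specific libraries, 72 in all, grouped by line and treatment from the sample labels. The authors checked reads with FastQC 0.11.5, aligned them with STAR to GRCm38 with GENCODE annotation and deposited raw counts per gene. They also deposited TPM, length-scaled values used here to compare genes and as an alternative; 12 of its columns are written with a decimal comma, read as a point. Of the gene identifiers 99.6% were found in GENCODE release 21, used for positions. It is not the release the authors counted on, so exon overlaps may differ slightly.

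Tests used R 4.3.3 with edgeR 4.0.16, and DESeq2 1.42.0 and limma 3.58.1 as alternatives; tables and plots used Python 3.11.15, pandas 2.3.3, scipy 1.17.1 and matplotlib 3.10.9. Genes were filtered with filterByExpr (minimum count 10, minimum total 15), scaled by TMM factors and put through edgeR's quasi-likelihood test over all genes, in 1 fit for each line, for each receptor and vector pair (24 libraries), for the 18 mock libraries and for all 72. SE is the absolute log2 fold change over the square root of F. Alternatives were RLE size factors, no filter, DESeq2, limma on log2(TPM + 1) and log2(TPM + 0.1) with a mean above 1 TPM, all 72 libraries in 1 fit, the replicate block, the adjusted p alone, each replicate left out, and the 2 libraries against their labels left out. Count intervals are 95% and exact, and reads carry no molecular identifiers. The steps were tested on simulated data.

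Same-numbered libraries were checked for pairing by the correlation of their deviations from group means, over 18 pairs a line. All were over 0.1 in 1064 (lowest 0.479), 1014-Grpr (0.228) and 1181-Ctrl (0.617), where the numbers were taken to pair libraries, and not in 1057, 1181-Grpr and 1014-Ctrl. No replicates agreed within sampling noise (smallest chi-square per degree of freedom 2.436).

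The 10 genes and the lists were chosen with earlier results of these data known. Named are these 10, list genes called in a comparison or with the 3 highest resting levels, the label checks and the 5 genes most like Ptgs2. List genes called only at rest are given as counts. An annotation detail of 1 gene is not reported here.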

Additional observations from a re-analysis of the deposited data

Results flagged for a closer look

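The results below were flagged because the GRP effect differed between 2 lines or sets of lines in a test of the difference itself (edgeR's interaction test, adjusted over all genes). No cause was tested. Among the 10 genes, Ptges3 had a larger effect in 1014-Grpr than in 1014-Ctrl by 0.32 ± 0.10 (edgeR adjusted p = 0.0313), under the fold threshold, or 0.36 ± 0.10 (0.0154) without the 1014-Ctrl library against its label. Ptger4 responded more in 1057 than in 1181-Grpr by 1.72 ± 0.48 (edgeR adjusted p = 0.0286), and Ptgs1 more in 1057 than in 1014-Grpr by 1.49 ± 0.45 (edgeR adjusted p = 0.0266). Each of these calls was lost when a single replicate number was left out, for some of the numbers. The comparisons between GRPR-expressing lines, here and below, were added after the data had been seen.

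Among the list genes, Anxa1 had the larger effect in 1014-Grpr against each line tested with it, by 2.51 ± 0.20 against 1014-Ctrl (edgeR adjusted p = 8.72e-08, or 2.42 ± 0.19 and 6.27e-08 without that library), with -1.63 ± 0.17 in 1057 less 1014-Grpr (3.59e-07), -1.74 ± 0.35 in 1064 less 1014-Grpr (0.0379) and -1.83 ± 0.32 in 1181-Grpr less 1014-Grpr (0.00286). Its mean effect in the 4 GRPR-expressing lines exceeded that in the 2 vector lines by 1.07 ± 0.22 (edgeR adjusted p = 0.000779, or 1.02 ± 0.23 and 0.00185 without the 2 libraries). Pla2g5 responded more in 1057 than in 1181-Grpr by 4.36 ± 1.18 (edgeR adjusted p = 0.0247) and than in 1014-Grpr by 4.69 ± 0.88 (edgeR adjusted p = 0.000536), both resting on 1 read in mock 1057, and the former was called in 2 of its 5 alternatives.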

How the results depend on the processing

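Of 2172 values of single genes under an alternative, 2113 kept their side of the threshold, 43 were no longer called, 16 became called and 0 called values changed sign; of 295 counts of genes called among the 10, 243 stayed within 1.5 times. With the authors' TPM at either pseudocount, counts went to 0 for GRP in 1057 (from 3) and 1014-Grpr (from 2), GRP+RC against GRP in 1057 (from 1) and 1014-Grpr (from 2), RC (from 1) and GRP+RC against mock (from 2) over the 6 lines, and the mean over GRPR-expressing lines (from 2); Ptgs2 and Ptger4 lie under its filter. At rest TPM gave 1 in place of 2 for 1057 against 1064 and, with a pseudocount of 1, 1 in place of 2 for the 1181 pair and 0 in place of 1 for 1057 and 1064 against the vector lines, where a pseudocount of 0.1 gave 2. One fit of all 72 libraries gave 0 for GRP+RC against GRP in 1057, 1 in 1014-Grpr, and 0 for RC and for GRP+RC against mock. DESeq2 gave 0, 1 and 0 for GRP+RC against GRP in 1057, in 1014-Grpr and for RC, with no adjusted p for the genes lost, and 1 (Ptgs2) in place of 0 for the 1014 pair. The adjusted p alone gave 5 for GRP and 2 for GRP+RC against GRP in 1057, 2 for RC, 1 for the 1014 pair and 4 for 1057 and 1064 against the vector lines. The replicate block gave 1 for the 1014 pair and 2 in place of 0 for 1181-Grpr less 1014-Grpr, and changed no other count by over 1.5 times; over all genes it moved the GRP calls in 1064 from 320 to 900. Leaving out the 2 libraries (chosen with earlier results known; in the pairs of GRPR-expressing lines, after the data had been seen) gave 2 for 1057 and 1064 against the vector lines, with and without the block, and 2 for the 1014 pair with it. Leaving out 1 replicate number gave 1 to 2 for GRP in 1014-Grpr, 0 to 1 for GRP+RC against GRP in 1057, 0 to 1 in 1014-Grpr, 1 to 2 for GRP+RC against mock, 0 to 1 for the mean over GRPR-expressing lines, 1 to 2 for the 1181 pair at rest, 1 to 2 for 1057 and 1064 against the vector lines, and 0 to 1 for 1057 less 1181-Grpr and for 1057 less 1014-Grpr. Except where a filter or fewer samples applies, the cause was not tested. With at most 62 reads of Ptgs2 in a library, depth limits what can be said of it.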
